A study of Saccharomyces cerevisiae with 328 samples.

Results

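The 3 nuclear RNA polymerases of budding yeast, Saccharomyces cerevisiae, are built from subunits whose mRNAs were followed here across 328 deletion strains. The genes were those named RPA, RPB or RPC followed by a digit, together with RPO21, RPO26, RPO31, RET1 and RRN3. This gave 32 genes of the 4922 with a value: 7 subunits found only in RNA polymerase I, 7 only in RNA polymerase II, 10 only in RNA polymerase III, 2 in polymerases I and III, 5 in all 3 enzymes, and RRN3, an initiation factor of RNA polymerase I that is not a subunit. PolyA RNA of each strain was sequenced from cells in exponential growth, with 1 library per strain, and the deposited values are log2 ratios of a deletion strain to the wild type strain. None of the 328 strains lacked 1 of the 32 genes.

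RNA polymerase I transcribes the large ribosomal RNA precursor, RNA polymerase II the messenger RNAs, and RNA polymerase III transfer RNAs, the 5S ribosomal RNA and other small RNAs. The enzymes share a core of related or identical subunits, so that most subunits of RNA polymerase I have a counterpart in the other enzymes. In yeast, genes of RNA polymerases I and III and of ribosome assembly are known to share promoter elements named PAC (the polymerase A and C box) and RRPE, and their mRNAs are known to rise with growth and fall under stress.

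The strains were grouped by the gene they lack. The class compared most closely comprised 18 strains, each without a protein of the small ribosomal subunit (RPS1A, RPS1B, RPS4B, RPS9B, RPS10B, RPS11A, RPS16A, RPS18B, RPS19B, RPS21A, RPS23A, RPS24A, RPS25A, RPS27B, RPS28B, RPS29A, RPS30A or RPS30B). A further 14 lacked a protein of the large subunit (RPL6B, RPL8A, RPL9A, RPL11B, RPL13A, RPL16B, RPL19A, RPL19B, RPL21B, RPL29, RPL37A, RPL37B, RPP1A or RPP2B), and 7 a ribosome biogenesis factor (NOP12, TMA23, SSF1, TSR2, JJJ1, RRP6 or LRP1). Transcription was represented by 17 deletions of chromatin genes (SWC5, SGF29, SNT1, EAF1, SPT3, SGF73, ASF1, EAF6, JHD2, RTT109, IES3, RSC2, VPS71, SPT21, YAF9, RTT106 or SIN3), 6 of Mediator (SRB2, SOH1, SSN2, SRB8, SIN4 or CSE2) and 5 of RNA polymerase II elongation (DST1, RTF1, CDC73, LEO1 or CTK1). Factors known to help build or import the polymerases were deleted in 4 strains (IWR1, RTR1, BUD27 or PIH1). The remaining classes were 6 deletions of Elongator and URM1 genes (ELP2, IKI3, ELP6, URM1, UBA4 or KTI12), 6 of nuclear pore or mRNA export genes (SAC3, THP1, NUP120, NUP133, MLP2 or APQ12) and 12 of mitochondrial genes (ETR1, MRPL36, IMG2, SLM3, IRC3, CEM1, RPO41, PCP1, KGD1, FLX1, OAR1 or MCT1). Deletions in none of these classes, that of ASC1 among them, formed the group each class was set against. Members of a class lack different genes, so the spread inside it holds differences between genotypes as well as between cultures. The labels name neither the strain background nor how many wild type libraries there were.

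Several libraries stood apart. The libraries were divided into 4 groups of 80, 73, 96 and 79 strains that no label names, found from the values themselves. These groups took 39% of the variance over the 2142 genes with a value in every strain. The number of groups was set at 4, and they were fitted to these same genes, so the share is not an independent measure. A whole chromosome was shifted by more than 0.4 on the log2 scale in 17 strains. The libraries of the ASF1, ASC1 and YLR338W deletions had the largest spread over genes within their group, with standard deviations of 1.05, 0.90 and 0.81 against a median of 0.37, and 23.9%, 12.5% and 17.6% of the tested genes empty. Of 256 strains whose deleted gene could be checked, 49 had it empty and 58 had it less than 0.5 below the median of the other strains, among them the libraries labelled RPS1A, RPS10B, RPS16A, RPS19B, BUD27, CTK1, GUP1 and PEP8. Depth per library is unknown.

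All 32 genes passed the filter on missing values, and 24 of them had a value in every strain. The PAC core, GATGAG, occurred within 300 bases upstream of the start codon in 17 of the 32 genes and in 19.5% of 4420 tested genes. The split followed the enzymes. The core stood before 6 of 7 genes of RNA polymerase I, 8 of 10 of RNA polymerase III, both genes shared by these enzymes, and RRN3, and before 0 of 7 genes of RNA polymerase II and 0 of 5 genes common to all 3 enzymes. The genes of polymerases I and III without it were RPA12, RPC11 and RPC17. Windows of 30 bases around the match nearest the start codon show the element in each of the RNA polymerase I genes that have it, in the shared genes, in RRN3 and in 4 genes of RNA polymerase III. They were read from the RefSeq annotation and genome of build R64, 5′ to 3′ on the strand of the gene, with the core in capitals (GATGAG, or CTCATC where it lies on the opposite strand).
RPA190, chrXV:960808-960837, plus strand: ttcaaatctcatCTCATCtcttaaaaaggt
RPA135, chrXVI:581283-581312, minus strand: ttagagactcatCTCATCtcttaattattc
RPA49, chrXIV:182721-182750, minus strand: attttttattgcGATGAGctgaaattttcc
RPA43, chrXV:960347-960376, minus strand: tgaaaagattccGATGAGggtgtatgggtg
RPA34, chrX:140315-140344, plus strand: aaaaattttatcGATGAGcattgaatagct
RPA14, chrIV:769454-769483, plus strand: gattatagaggtCTCATCggtaaggcagag
RPC40, chrXVI:746901-746930, minus strand: aaaaattattgcGATGAGttgaaagaaaaa
RPC19, chrXIV:412632-412661, plus strand: atattcacctgcGATGAGctggaaaaaaaa
RRN3, chrXI:208061-208090, plus strand: aaaagatattttGATGAGcatctctcgttt
RPO31, chrXV:544226-544255, minus strand: taaatttttaaaCTCATCactggttggtta
RET1, chrXV:733569-733598, minus strand: ttgtaattgtgaGATGAGctgaaaattttt
RPC82, chrXVI:919146-919175, minus strand: atttttcaaaagCTCATCgcattgaaggaa
RPC25, chrXI:176658-176687, minus strand: attcaggcgatgCTCATCgcttaaaatttt

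Over the 17 genes the match nearest the start codon lay 53 to 234 bases before it. RPA190, RPA135, RPO31 and RPC37 held 2 matches of the core and RPC53 held 3, and the other 12 genes held 1. The 2 matches of RPA190 overlap each other, as do those of RPA135 and 2 of the 3 of RPC53. In the RPA190 and RPA135 windows the capitals mark only the match nearest the start codon. The RRPE letters AAAATTT, searched on both strands and overlapping with their own reverse complement AAATTTT, occurred in 23 of the 32 promoters and in 27.2% of tested genes. This element did not divide the enzymes in the same way: it stood before 6 of 7 genes of RNA polymerase I, 8 of 10 of RNA polymerase III, 2 of 7 of RNA polymerase II and 4 of 5 of the genes common to all enzymes. For comparison, the PAC core was found before 86.7% of the ribosome assembly genes and 18.8% of the proteasome genes tested. A match is a description of the letters in the window, and binding of a factor was not measured.

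The mRNAs of RNA polymerase I were the lowest of the 3 enzymes relative to wild type. Of the 7 genes, 7 had a mean log2 ratio below 0. So had 62.4% of the 4499 genes tested and 92.2% of the ribosome assembly genes tested. The median of the means was -0.57 for RNA polymerase I, against -0.16 for RNA polymerase II and -0.26 for RNA polymerase III. It was -0.28 for the 5 common subunits, -0.39 for the ribosome assembly genes and -0.13 for all genes tested. RPA43, a subunit of the stalk through which the enzyme meets Rrn3, was the lowest of the 32 with a mean of -1.004 ± 0.418 (SD, n = 328), and it was below 0 in 328 of 328 strains (lowest -2.15, median -0.997, highest -0.07). RPA190, the largest subunit, was the steadiest of the 7 at -0.65 ± 0.24 (n = 328) and was below 0 in 327 strains, from -2.55 in the ASF1 deletion to 0.02 in the HMO1 deletion with a median of -0.63. The sign was thus nearly the same in every strain for both genes. The SD was above that of 31.3% of tested genes for RPA43 and of 0.845% for RPA190.

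The other RNA polymerase I genes followed at smaller distances. RPA49 and RPA34, which together form a part resembling the general factor TFIIF, had means of -0.64 ± 0.31 and -0.31 ± 0.36 (n = 328). RPA12, the subunit that cleaves RNA in the active site, was the most variable of the 7 at -0.57 ± 0.60 (n = 327), from -2.54 to 1.24 with a median of -0.47. RPA14, the smaller stalk subunit, averaged -0.51 ± 0.47 and RPA135, the second largest subunit, -0.38 ± 0.28 (n = 328 each). RRN3, which makes the polymerase competent to initiate, averaged -0.30 ± 0.46 (n = 327) and was below 0 in 264 strains. All ratios have the wild type strain as denominator, from an unknown number of libraries. A gene that was high in the wild type RNA and a gene that was low in the deletion strains cannot be told apart. These levels were not tested.

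**Figure D1:**
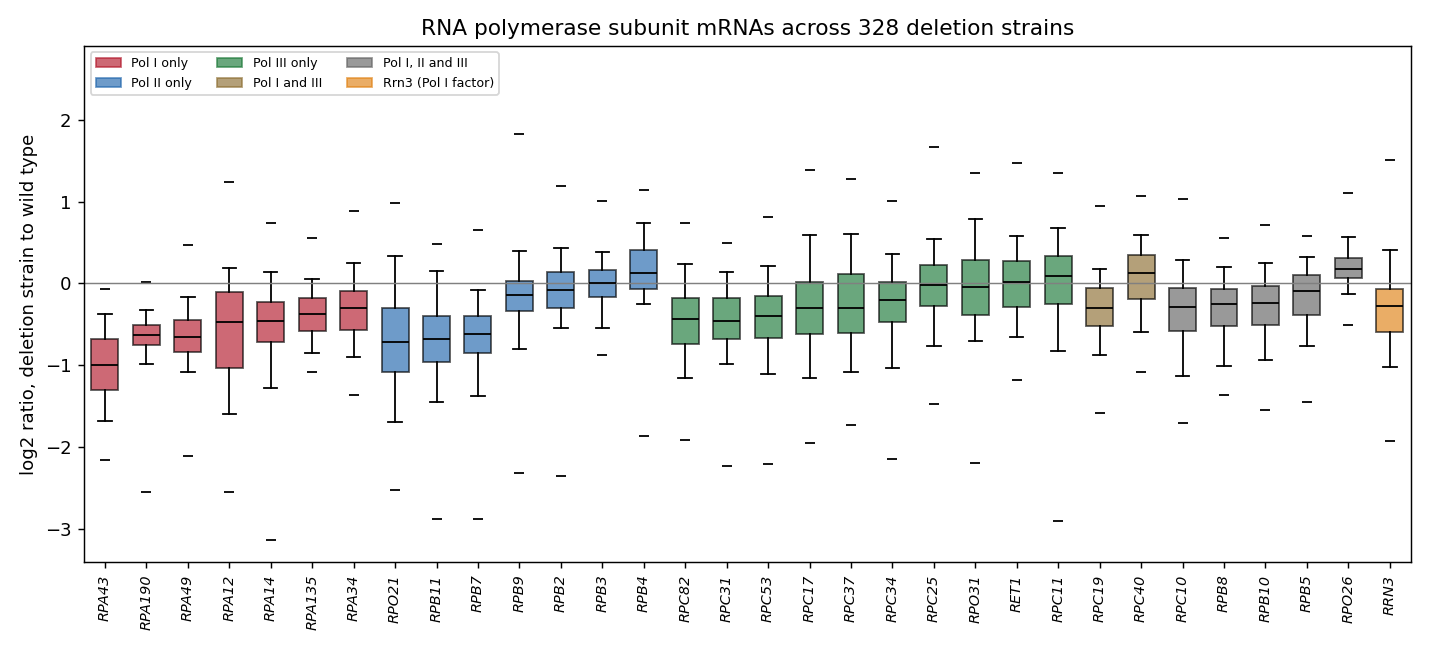
Log2 ratio to wild type of each of the 32 genes across the strains, grouped by enzyme and ordered by mean. Boxes span the quartiles with the median as a line, whiskers the 5th to 95th percentile, and single dashes mark the lowest and highest strain; RPA43 lies below 0 in 328 of 328 strains, while RPC11, RET1 and RPB3 are centred near 0.

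The 7 genes of RNA polymerase II were divided. RPO21, which encodes the largest subunit with the C-terminal repeat domain, RPB11, an assembly subunit related to bacterial alpha, and RPB7, of the stalk, had means of -0.70 ± 0.61 (n = 325), -0.68 ± 0.49 (n = 328) and -0.66 ± 0.44 (n = 327). RPB2, RPB3 and RPB9, in contrast, averaged -0.09, -0.02 and -0.16, and RPB4, the other stalk subunit, was above 0 at 0.17 ± 0.34 (n = 328). RPO21 ran from -2.52 to 0.98 with a median of -0.71, and its SD was above that of 92% of tested genes. The lowest and highest means of this enzyme thus fell on the largest subunit and on a stalk subunit.

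By the median of the gene means, -0.26, RNA polymerase III lay between RNA polymerases I and II. The mean over strains placed it highest of the 3, at -0.22 against -0.31 for RNA polymerase II. RPC82 and RPC31, which with RPC34 form the part that contacts the initiation factor TFIIIB, averaged -0.45 ± 0.43 and -0.44 ± 0.37 (n = 328), and RPC34 averaged -0.26 ± 0.45 (n = 325). RPC53 and RPC37, the counterparts of RPA49 and RPA34, averaged -0.43 and -0.27. The largest subunits RPO31 and RET1 were near the wild type level at -0.03 ± 0.50 (n = 327) and 0.00 ± 0.40 (n = 328), as were RPC25 of the stalk at -0.05 and RPC11, the cleavage subunit, at 0.02. The remaining stalk subunit, RPC17, averaged -0.30 ± 0.54 (n = 324). Of the shared subunits, RPO26 was the highest of all 32 genes at 0.20 ± 0.22 (n = 328), RPC40 averaged 0.07, and RPC19, RPB5, RPB8, RPB10 and RPC10 ran from -0.35 to -0.14.

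Setting subunits of corresponding place side by side gave the same order for RNA polymerases I and III throughout. In 7 of 7 pairs the RNA polymerase I subunit had the lower mean, and it was the lower of the pair in 56.4% to 97.6% of strains. The widest gap was between the larger stalk subunits, where RPA43 was below RPC25 by -0.96 ± 0.52 (n = 328) and lower in 320 strains. RPA190 was below RPO31 by -0.61 ± 0.58 (n = 327) and lower in 285, RPA12 below RPC11 by -0.59 ± 0.56 (n = 327) and lower in 288, and RPA135 below RET1 by -0.38 ± 0.39 (n = 328) and lower in 283. The narrowest gap, RPA34 against RPC37, was -0.05 ± 0.45 (n = 328) and turned to 0.14 in the third library group. RPA14 against RPC17 turned to 0.48 in the fourth, and RPA49 against RPC53 to 0.23 in the second; the other 4 pairs kept the sign in all 4 groups.

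Against RNA polymerase II the order was mixed. RPA190 and RPO21 differed by 0.06 ± 0.66 (n = 325), less than the spread between strains, and the sign of the difference varied with the library group (0.05, -0.55, 0.63 and -0.05). RPA14 was lower than RPB4 in 314 of 328 strains, RPA135 lower than RPB2 in 275 of 327, and RPA43 lower than RPB7 in 253 of 327, although RPA43 was the higher by 0.14 on average in the second library group. RPB11, on the other hand, was lower than its counterpart RPC19 in most strains: RPC19 was the lower in 81 of 328. In the fourth library group that order turned, with a mean of RPC19 minus RPB11 of -0.10.

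Per strain, the mean over the 7 RNA polymerase I genes was below 0 in 323 of 328 strains, with a median of -0.60 (lowest -1.19, highest 0.13). The corresponding medians were -0.29 for RNA polymerase II, below 0 in 308 strains, and -0.21 for RNA polymerase III, below 0 in 281. RNA polymerase I had the lowest mean of the 3 enzymes in 301 strains, and the order I, II, III from lowest to highest held in 59.8% of strains, I, III, II in 32.01%. The strain's own median over all genes was above its RNA polymerase I mean in 325 strains. It was above the RNA polymerase II mean in 295 and the RNA polymerase III mean in 245. That median was itself below 0 in 262 strains. The mean of the ribosome assembly genes was below 0 in 322 strains and below the strain's median in 321. Leaving out the ASF1, ASC1 and YLR338W libraries gave medians of -0.60, -0.29 and -0.22, with RNA polymerase I lowest in 300 of 325 strains.

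The library groups shifted the 3 enzymes unequally. The median of the RNA polymerase I means was -0.62, -0.49, -0.78 and -0.34 in groups 1 to 4, and those of RNA polymerase II followed the same order with -0.32, -0.19, -0.52 and -0.11. RNA polymerase III differed, with -0.08, -0.24, -0.42 and -0.10, so that its mean was below that of RNA polymerase II in 12 of 80 strains of the first group and in 42 of 73 of the second. RNA polymerase I was below RNA polymerase III in 80, 68, 95 and 74 strains of the 4 groups. What distinguishes the groups was not tested.

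**Figure D2:**
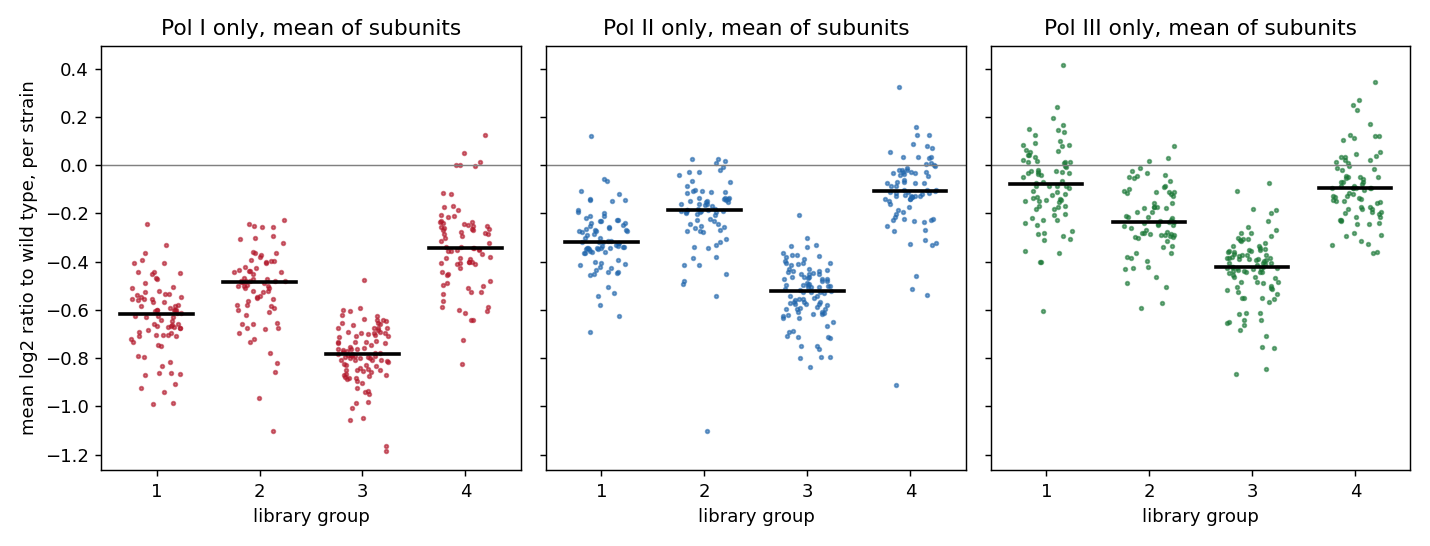
Mean log2 ratio over the subunits found only in RNA polymerase I, II or III, 1 point per strain, by library group; black lines are medians. The RNA polymerase I medians run from -0.78 to -0.34 and lie below those of the other enzymes in all 4 groups.

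The deletions of small ribosomal subunit proteins were the only class in which any of the 32 genes passed the test, and the 2 that did moved in opposite directions. In this limma fit over all strains, 1.8% of the 4499 genes were called at an adjusted p under 0.05 (0.333% higher and 1.47% lower), against 2 of the 32 genes. RPO21 fell and RRN3 rose. In the 18 strains RPO21 ran from -2.22 in the library labelled RPS10B to 0.26 in the RPS9B deletion, with a median of -1.29, and in the deletions outside the classes from -2.52 to 0.98, with a median of -0.66. The ranges overlapped, and 14 of the 18 lay below the latter median. The difference was -0.515 ± 0.145 (SE; limma adjusted p = 0.0365).

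RRN3 ran from -0.96 in the library labelled RPS16A to 1.51 in the RPS27B deletion, with a median of 0.04, and in the deletions outside the classes from -1.93 to 1.11, with a median of -0.31. Of the 18 strains, 13 lay above that median, and the groups overlapped. The difference was 0.43 ± 0.11 (SE; limma adjusted p = 0.0137). The 7 subunits of RNA polymerase I, which Rrn3 brings to the ribosomal DNA promoter, had a median difference of 0.02 in the same strains; 0 of them passed the limma test, and RPA190 alone of the 7 had an unadjusted p under 0.05.

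Single libraries decided both calls. The RPS27B deletion had chromosome XI, which carries RRN3, shifted by 0.82, and without this library the RRN3 difference was 0.34 (limma adjusted p = 0.0760); without the RPS28B deletion, where RRN3 was 1.05, it was 0.37 (limma adjusted p = 0.0683). The call was kept in the other 16 of 18 omissions. For RPO21 the call was lost in 9 of 18 omissions, those of RPS1A, RPS10B, RPS11A, RPS21A, RPS23A, RPS28B, RPS29A, RPS30A and RPS30B, where the difference ran from -0.51 to -0.46 and the adjusted p from limma from 0.0590 to 0.102. When libraries that went against their label were left out, 4 of them in this class, RPO21 differed by -0.47 (limma adjusted p = 0.0722) and RRN3 by 0.55 (limma adjusted p = 0.00207). Without the 17 strains with a shifted chromosome neither gene passed, at -0.53 and 0.38 (limma adjusted p = 0.0532 for both).

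The library groups bear on RPO21 more than on RRN3. Of the 18 strains 9 belonged to the third group, in which RPO21 was low in the other deletions too, with a mean of -1.15. The difference within groups 1 to 4 was -0.31, -0.45, -0.54 and 0.00 for RPO21, and 0.49, 0.31, 0.44 and 0.45 for RRN3. With the groups as a term of the fit the differences were -0.38 (limma adjusted p = 0.0406) and 0.42 (limma adjusted p = 0.0107).

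**Figure D3:**
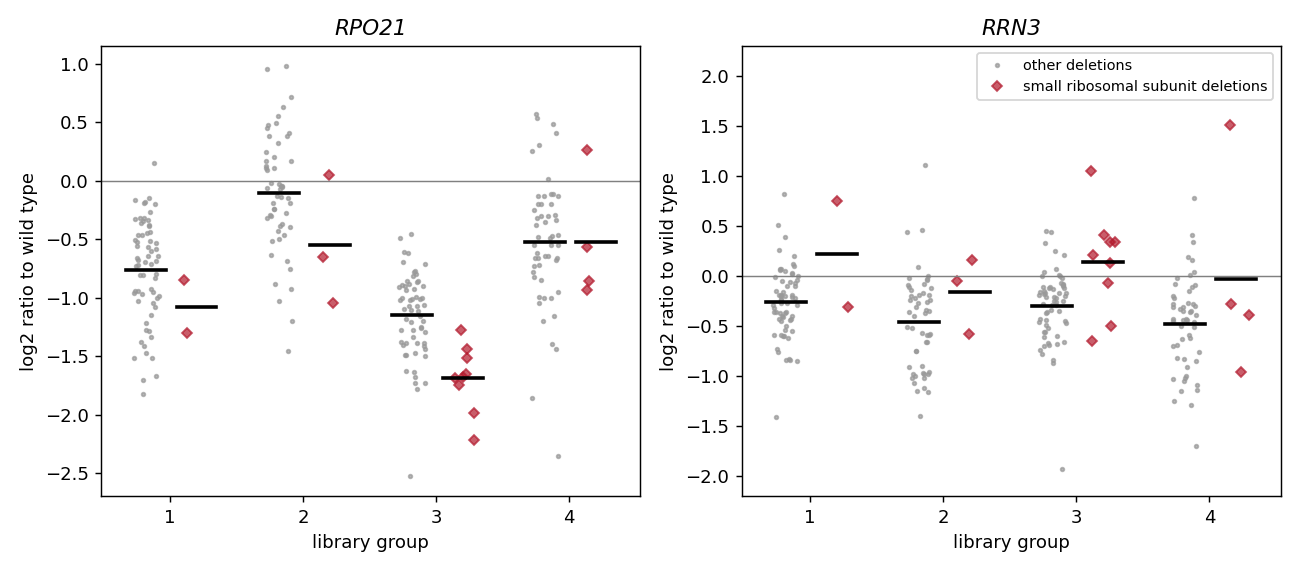
RPO21 (left) and RRN3 (right), log2 ratio to wild type of each strain by library group, for the other deletions (grey) and the deletions of small ribosomal subunit proteins (red); black lines are means. RPO21 is lower in the red strains of groups 1 to 3 and equal in group 4, and RRN3 is higher in all 4 groups.

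At an unadjusted p under 0.05 5 of the 32 genes stood out in these strains (15.6%, against 18.9% of all tested genes). Beside the called genes the smallest adjusted p belonged to RPB8, a subunit of all 3 enzymes, which differed by -0.22 ± 0.08 (SE; limma adjusted p = 0.129). RPA190 differed by 0.14 ± 0.06 (SE; limma adjusted p = 0.156). Of the wider lists, none of the general factors of the 3 polymerases, the assembly factors or the proteasome genes was called, and of the ribosome assembly genes NOP53 alone passed, at 0.30 ± 0.075 (SE; limma adjusted p = 0.012). The median difference of the 32 genes was -0.02, against -0.07 for all tested genes.

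In the other 9 classes 0 of the 32 genes passed the limma test. The background was 0.267% of tested genes in the large subunit deletions, 0.0889% in the ribosome biogenesis deletions, 0.0667% each in the Mediator and the RNA polymerase II elongation deletions, 0.0445% in the assembly and import deletions, 0.0222% in the nuclear pore and export deletions, and 0% in the chromatin, Elongator and URM1, and mitochondrial deletions. At an unadjusted p under 0.05, 4 of the 32 genes stood out in the chromatin deletions (6.13% of all genes did), 3 in the large subunit (9.58%), 3 in Mediator (8.91%), 4 in the nuclear pore (17.5%) and 3 in the assembly and import deletions (6.71%), and 0 in the other 4 classes (2.71% to 6.22%). A class of 4 to 17 strains with different deletions limits what such a test can find.

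The classes that touch the polymerases most directly are described by their values. In the 4 strains without an assembly or import factor, RPA190 was -0.42, -0.31, -0.26 and -0.23 in the order RTR1, BUD27, PIH1 and IWR1, against a median of -0.63 over all strains; the difference was 0.35 ± 0.12 (SE; limma adjusted p = 0.393). RET1 differed by 0.53 and RPB7 by -0.47 in this class, the highest and lowest of the 32. In the RNA polymerase II elongation deletions the differences ran from -0.39 (RPC34) to 0.38 (RRN3), with a median of 0.01. The deleted gene was not lowered in 2 of these 5 libraries, DST1 and CTK1. In the chromatin deletions 26 of the 32 genes had a negative difference, including 7 of 7 of RNA polymerase I and 7 of 7 of RNA polymerase II, with a median of -0.09 against -0.02 for all genes. Of these 17 strains 7 belonged to the third library group, in which the medians of RNA polymerase I and II were lowest (-0.783 and -0.520), and the class holds ASF1, with means of -1.10 for each of these enzymes. With library groups as a term 24 differences were negative and the median was -0.06, and without the ASF1, ASC1 and YLR338W libraries 27 were negative with a median of -0.07. In 5 of the 17 chromatin libraries, SNT1, EAF1, IES3, RSC2 and YAF9, the deleted gene was not lowered. In the nuclear pore and export deletions 25 were positive with a median of 0.15, while all tested genes had a median of 0.18. Here 4 of 6 strains belonged to the fourth library group, and with library groups as a term 19 differences were positive, with a median of 0.03 against 0.07 for all genes. In 4 of these 6 libraries, APQ12, NUP120, NUP133 and THP1, the deleted gene was not lowered.

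Single strains were followed where the deleted gene is known to act on the polymerases. Hmo1, an HMG-box protein that associates with the ribosomal RNA genes, is 1 such factor, and its deletion had the highest mean of all 328 strains for both RNA polymerase I (0.13) and RNA polymerase II (0.32). HMO1 itself was at -2.90, the lowest of all strains. In this strain RPA34 was 0.89 and RPA190 0.02, each the highest of all strains, RPA49 was 0.32, RPA135 0.17, RPA43 -0.42 and RPA12 -0.11. The RNA polymerase III mean was -0.04, with RET1 at 0.83 and RPC37 at 0.71 but RPC11 at -0.82 and RPC31 at -0.71. Ribosome assembly genes averaged 0.18, among the 3 highest of the strains. Its library belonged to the group with the highest RNA polymerase I values, and it exceeded that group's mean by 0.47 for RNA polymerase I and 0.44 for RNA polymerase II.

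The strain without TOD6, a repressor known to bind the PAC element, had an RNA polymerase I mean of -0.26, ranking 300 from the lowest of 328, and exceeded its library group's mean by 0.25. RNA polymerase II exceeded its own by 0.07 and RNA polymerase III by 0.04. Within the strain RPA49 was 0.10, RPA12 0.14 and RPA43 -0.40, whereas RPA190 was -0.91 and RPC11 -1.10; RPA12 and RPC11 have no PAC core in the window searched. TOD6 itself was at -1.555 in this library against a median of -0.895, ranking only 38 from the lowest. Being 1 library, the strain carries no replicate check.

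The 4 assembly and import factors gave unlike profiles. Without RTR1, which is known as a phosphatase of the RNA polymerase II C-terminal domain, the means were -0.91, -0.71 and -0.52 for RNA polymerases I, II and III, and its lowest values were RPA43 at -1.64, RPB7 at -1.59, RPC82 at -1.53 and RPB11 at -1.50; RPO21 had no value. The IWR1 deletion, which lacks a nuclear import factor of RNA polymerase II, had means of -0.28, 0.00 and 0.12, with RPB11 at 0.42 and RPB4 at 0.76 but RPO21 at -0.50 and RPB7 at -0.945; RPB7 differed from its library group mean by -0.44. In the library labelled BUD27 the RNA polymerase III mean was 0.27, among the 3 highest of all strains; RET1 at 1.47 was the highest of all strains, and RPC37 reached 0.98 and RPA34 0.69, while RPC17 was -1.48, RPB7 -1.31 and RPA12 -1.12. BUD27 itself was at -0.67 there against a median of -0.52, so its mRNA was not lowered and went against the label. PIH1 had means of -0.26, -0.17 and -0.03.

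At the low end, the library labelled RPS10B had the lowest RNA polymerase I mean, -1.19, with RPA12 at -2.54 and RPA43 at -2.15 each the lowest of all strains and RPA135 at -0.19. The VPS38 deletion, which lacks a vacuolar sorting protein, followed with -1.16 and was also among the 3 lowest for RNA polymerase III at -0.76. The deletion of TAF14, a subunit of several RNA polymerase II transcription complexes, had means of -1.06, -0.75 and -0.52 for RNA polymerases I, II and III. These lay -0.27, -0.22 and -0.08 from the means of its library group. The median of this library over all tested genes, -0.45, was the lowest of all strains. The library labelled GUP1 had the lowest RNA polymerase III mean, -0.86, with RPO31 at -2.19 and RPC25 at -1.48 the lowest of all strains, whereas RPA14 was 0.00 there. The RPS10B, VPS38, TAF14 and GUP1 libraries all belonged to the third library group. In that group the medians of RNA polymerases I, II and III were lowest, at -0.78, -0.52 and -0.42.

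In the ASF1 deletion the subunits lay far apart. This strain lacks a histone chaperone, and 29 of the 32 genes had a value, of which 9 were at least 2-fold below and 3 at least 2-fold above wild type. The sum, 12, was the highest of any strain. RPA14 at -3.13, RPA190 at -2.55, RPB2 at -2.35, RPB4 at -1.86 and RPB5 at -1.45 were the lowest of all strains, while RPC17 at 1.38, RPC11 at 1.35, RPB3 at 1.01, RPC31 at 0.50 and RPA49 at 0.47 were the highest. Opposite extremes thus occurred within 1 enzyme: RPA190 against RPA49, and RPB2 against RPB3. Of the tested genes with a value in this library, 38.9% were at least 2-fold from wild type. ASF1 itself was at -1.873 there against a median of -1.264, ranking 14 from the lowest. The ASC1 deletion, also among the 3 libraries of widest spread, had the highest RPB9 (1.82), RPB4 (1.14) and RPB7 (0.65) together with RPO21 at -1.82 and RPC53 at -1.60.

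Over all strains, 8.60% of the 10481 values of the 32 genes were at least 2-fold from wild type, against 12.3% of the values of all tested genes. Of the values of the 32 genes 870 were lower and 31 higher. The direction was not counted for all tested genes, of which 62.4% had a mean below 0. RPA43 was at least 2-fold lower in 49.7% of strains, RPO21 in 32.3%, RPA12 in 27.2%, RPB11 in 21.3% and RPB7 in 15.9%. RPB3 and RPO26 were at least 2-fold lower in 0 strains and at least 2-fold higher in 1 strain each.

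Where a whole chromosome was shifted, the subunit genes on it moved with it. In 12 strains such a chromosome carried 14 of the 32 genes, giving 33 values, of which 32 lay above the gene's median after subtraction of the strain's own median, by a median of 0.88. Of these values 7 were the highest of all strains. On chromosome XI, shifted by 0.82 in the RPS27B and 0.91 in the SRB8 deletion, RRN3 was raised by 1.78 and 1.57, RPC25 by 0.76 and 1.75, and RPC37 by 1.55 and 0.88. On chromosome IV, in the RPP1A deletion and the library labelled PEP8, RPO21, RPC53, RPC11, RPA14 and RPB7 were raised by 0.53 to 1.12 where the chromosome was shifted by 0.81. The exception was RPC10 on chromosome VIII in the KRE28 deletion, at -0.14 against a chromosome shift of 0.69. The highest RNA polymerase III mean, 0.42 in the SRB8 deletion, included 2 of these genes, RPC25 and RPC37; whether the strains carried additional copies was not tested.

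**Figure D4:**
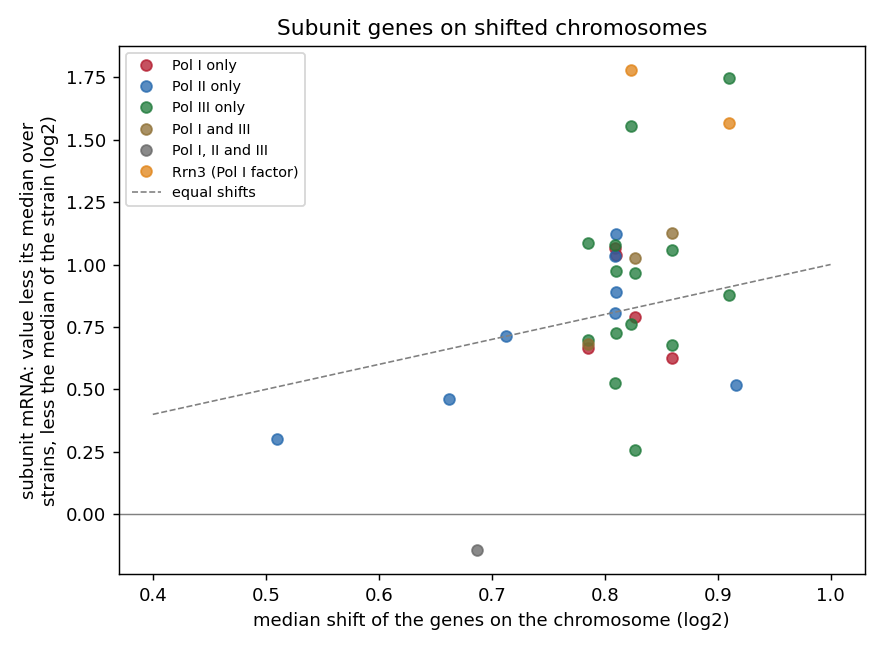
Each point is 1 subunit gene in 1 strain whose chromosome was shifted as a whole: on the horizontal axis the median shift of the chromosome's genes, on the vertical axis the gene's own shift, both log2. The dashed line marks equal shifts; 32 of 33 points lie above 0.

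Next to a deleted gene the subunit mRNAs showed no common direction. Of 16 pairs in which the deletion lay within 5 open reading frames of a subunit gene, 7 had a value below that gene's median. The pairs above it include the libraries labelled PTK2, YAF9, CTK1 and VPS51, in which the deleted gene was not lowered. RPB11 lies between SIN3 and TOP1, and it was -0.828 and -0.825 in these deletions against a median of -0.68; relative to their library group means the values were 0.15 and 0.02. The widest gap of the 16 was RPC17 in the TPH3 deletion, 4 reading frames away, at -1.46 against a median of -0.30, the ninth lowest of 324 values.

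Subunits of 1 enzyme varied together only weakly across strains. With values centred on the mean of their deposited table, the median Pearson's r over pairs was 0.245 within RNA polymerase I (21 pairs), 0.142 within RNA polymerase II (21 pairs) and 0.177 within RNA polymerase III (45 pairs), against 0.06 over all pairs of genes with a value in every strain and 0.35 within the proteasome. Each r is over up to 328 libraries, all set against the wild type strain. Within a group the libraries also share whatever sets the library groups apart. Centred on the library group mean, the medians were 0.095, 0.004 and 0.065, against 0.025 for all pairs and 0.164 for the proteasome. Pairs from different enzymes had medians of 0.168 for RNA polymerases I and II, 0.172 for I and III and 0.138 for II and III.

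Among single pairs, the highest correlation was between RPA43, of the stalk of RNA polymerase I, and RPB8, which is part of all 3 enzymes, at 0.73 (0.41 within library groups), followed by RPA14 and RPB11, of RNA polymerases I and II, at 0.68 (0.54). RPA34 and RPO26 reached 0.57 within library groups. RPC31 and RPC34, which sit together in RNA polymerase III, reached 0.302 (0.313), and RPA34 and RPA49 0.298 (0.365). RPB4 and RPB7, the stalk pair of RNA polymerase II, gave 0.196 (-0.001). Negative values were led by RPB11 and RPC10 at -0.62 (-0.32). RPA43 and RPA190 lie back to back on chromosome XV with 804 bases between their start codons, at 960183 to 960986, and each has a PAC core in that interval, shown among the windows; their r was 0.05 (0.20 within library groups).

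**Figure D5:**
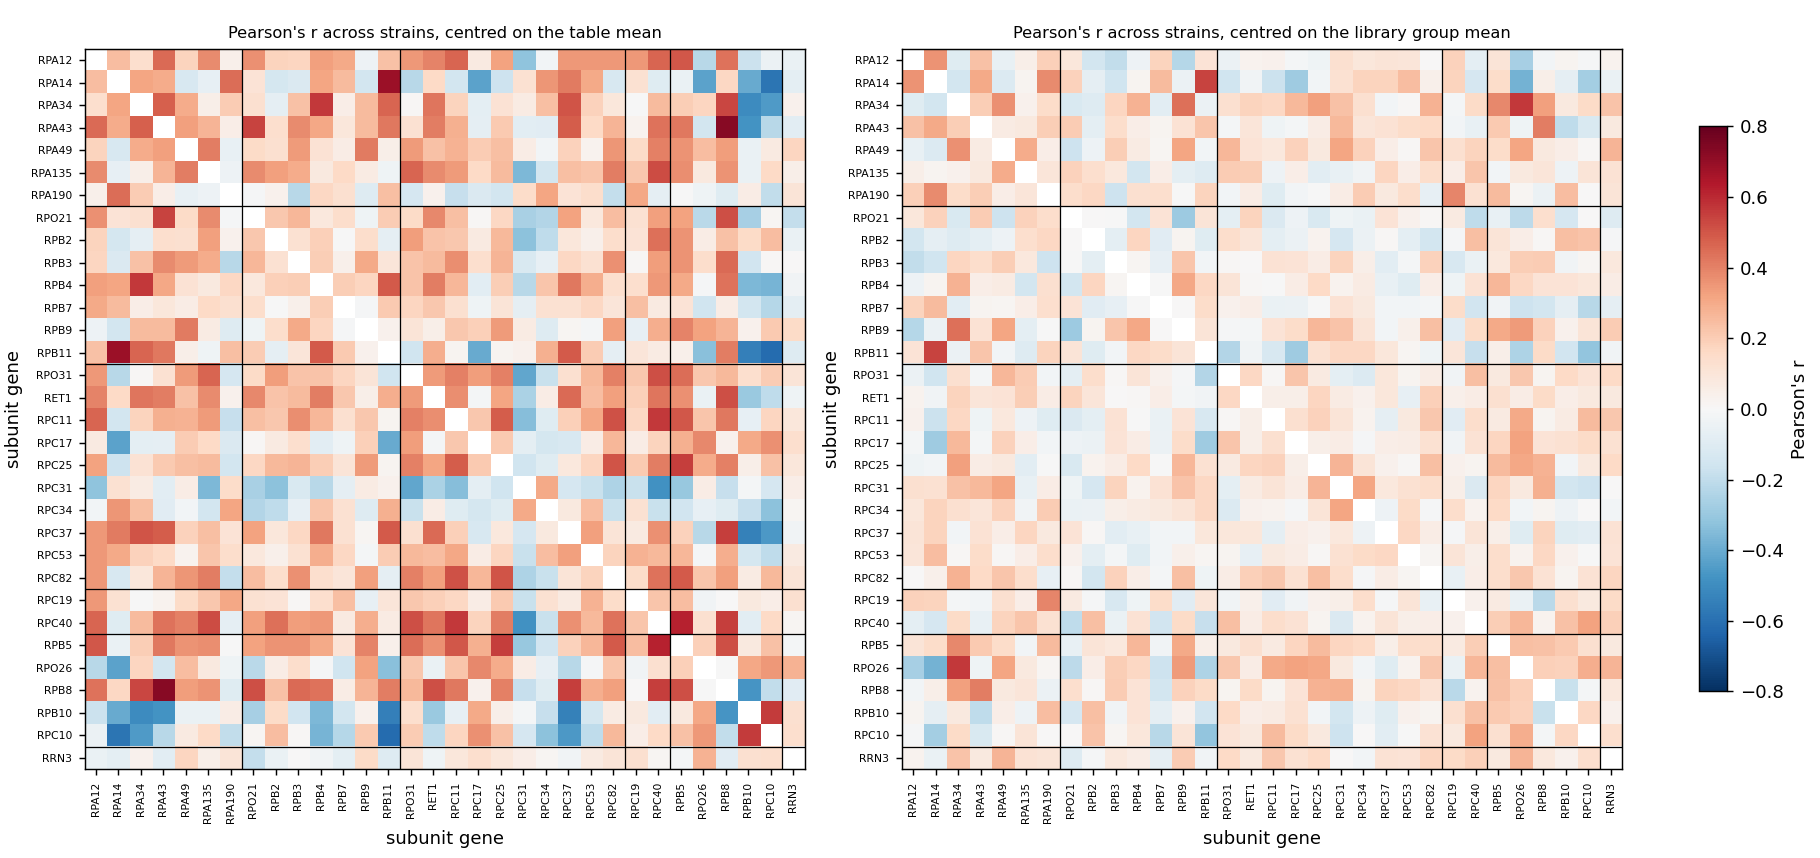
Pearson's r between the 32 genes across strains, centred on the table mean (left) and on the library group mean (right), with black lines between subunits of RNA polymerase I, II, III, I and III, all 3 enzymes, and RRN3. Centring on the library group lowers the median within each enzyme from 0.245, 0.142 and 0.177 to 0.095, 0.004 and 0.065.

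As means over all strains, RNA polymerase I had the highest r with the ribosome assembly genes. The r between the mean of its 7 genes and the mean of the ribosome assembly genes was 0.817 over 328 strains, against 0.625 for RNA polymerase II and 0.633 for RNA polymerase III, and between the enzymes it was 0.67 for I and II, 0.54 for I and III and 0.47 for II and III. With the proteasome mean the order was another: r was 0.610 for RNA polymerase I, 0.690 for II and 0.581 for III, and -0.028, 0.218 and 0.160 when values were centred on the library group mean. Within library groups 1 to 4, r with ribosome assembly was 0.634, 0.546, 0.625 and 0.783 for RNA polymerase I. It was 0.654, 0.219, 0.692 and 0.723 for RNA polymerase III, which was thus the higher of the pair in groups 1 and 3. For RNA polymerase II it was -0.046, 0.333, 0.499 and 0.249. Centred on the library group the values were 0.641 for RNA polymerase I, 0.616 for III and 0.255 for II. Gene by gene, RPA34 (0.62) and RPA43 (0.49) had the highest r with ribosome assembly in that centring, and RPB7 (-0.03) and RPB2 (-0.02) the lowest.

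The promoter split recurred only in part. In the library group centring the 17 genes with the PAC core, printed in part above, had a median r of 0.29 with the ribosome assembly mean (0.14 to 0.62) and the 15 without it 0.15 (-0.03 to 0.47). Without that centring both sets had nearly the same median, 0.37 and 0.38. The genes nearest to each enzyme's mean, by r over genes with a value in every strain, were RPL5 (0.785), GSP1, CCT2, PXR1 and UTP10 (0.73) for RNA polymerase I, RPL26A (0.76), RPL5, CCT2, ARP3 and MYO2 (0.70) for RNA polymerase II, and YKL033W-A (0.75), NIP7, ARO7, TMA7 and YOR021C (0.67) for RNA polymerase III. Centred on the library group they were DBP2 (0.59), RPL8B, GAR1, SSB1 and YCR087C-A (0.51) for RNA polymerase I, APE3 (0.48), RPG1, SSH1, WHI2 and SFB3 (0.41) for RNA polymerase II, and NIP7 (0.50), CGR1, YKL033W-A, NOP4 and TMA23 (0.45) for RNA polymerase III.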

How the data were processed

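The deposited tables hold log2 ratios of 328 deletion strains to the wild type, per the series design, 255 strains in the first table and 73 in the second, 1 library each. Per the submitters' processing notes Bowtie was used; no source used here gives its version, the build, how reads were counted or how depth was scaled, and the base of the logarithm was taken as 2. Rows of the second table, which has no gene column, were matched to the first by position (r of gene means 0.979). Empty cells stayed missing, and limma fits each gene on the strains with a value. The test took the 4499 genes measured in 80% or more of the strains.

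A single limma fit of all strains set every class against the unclassed deletions (limma 3.58.1, R 4.3.3; lmFit, eBayes) with the deposited table as covariate and Benjamini-Hochberg adjustment over all genes at 0.05. Library groups came from a Gaussian mixture with 4 components on 4 principal components (scikit-learn 1.9.0). P-values measure the spread between strains of 1 library each. Alternatives were no table term, library groups as a term, strains centred on their median, other gene filters, a variance trend, strains with shifted chromosomes left out, the first table alone, and each strain of a class left out. Added after seeing the data were library groups with centring, leaving out strains whose deleted gene was not lowered, and leaving out the ASF1, ASC1 and YLR338W libraries. The fit was tested on simulated shifts.

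Members, gene lists and comparisons were chosen with earlier results of these data known. All 32 members were named; of other lists, genes past the threshold; per enzyme the 5 nearest genes, the 3 highest and lowest strains, and strains chosen for their function. The ASC1 deletion and the partner pairs were described after their values were seen. Promoters are 300 bases before the start codon in RefSeq R64, matched by gene name for 32 of 32 members; the files hold no coordinates. Python 3.11.15, numpy 2.4.6, pandas 2.3.3 and matplotlib were used.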

Additional observations from a re-analysis of the deposited data

Results flagged for a closer look

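Of 18 sets of strains (the mean of an enzyme's subunits within a class of 4 to 10 deletions), 2 held a strain far from the others; chance gives about 1 in 20. In the 6 nuclear pore and export deletions the RNA polymerase III mean was 0.114 in the SAC3 deletion, and in the others it ran from -0.205 to -0.089. The deleted gene was not lowered in 4 of these 6 libraries, and SAC3 was not among them. In the 4 assembly and import deletions the RNA polymerase I mean was -0.905 in the RTR1 deletion, and in the others it ran from -0.284 to -0.258. The RTR1 library belonged to the third library group, where RNA polymerase I was lowest, and it lay -0.119 from that group's mean.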

How the results depend on the processing

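The medians of the enzyme means kept their sign and moved by less than the spread between strains when members were summarised by their median or strains centred on theirs. The RPO21 and RRN3 differences kept their sign under the alternatives run for them. Median correlations did so in part. Within RNA polymerase II, centred on the library group, the median was 0.004, and -0.016 without the ASF1, ASC1 and YLR338W libraries. Between RNA polymerase I and the common subunits it turned from -0.002 to 0.056 with that centring. Single pairs turned as well. Centred on the library group, r turned from 0.196 to -0.001 for RPB4 and RPB7 and from 0.504 to -0.020 for RPA34 and RPC37. It turned from -0.452 to 0.150 for RPA34 and RPC10. Some differences between corresponding subunits turned within single library groups. The 2 genes called in the small subunit deletions became 1 with strains centred on their median, with the first table alone, with library groups and centring together, and without libraries that went against their label; they became 0 without strains with a shifted chromosome and 0 among genes with a value in every strain, a set that holds neither gene. RPO21 lost its call at -0.45 with centring (limma adjusted p = 0.0845), -0.48 in the first table (0.0686) and -0.34 with library groups and centring (0.0864); the cause was not tested. The percentage of all tested genes called by limma moved as follows. With library groups as a term it was 0.0445 for Elongator and URM1, 0.178 for Mediator, 0.0445 for nuclear pore, 0.133 for elongation, 0.378 for assembly and 3.47 for small subunit deletions. With centring it was 0 for nuclear pore, 0.0222 for elongation, 0.0222 for assembly, 0.0445 for ribosome biogenesis and 0.978 for small subunit. With both it was 0.0222 for Elongator and URM1, 0.489 for large subunit, 0.178 for Mediator, 0.2 for assembly, 0.156 for ribosome biogenesis and 3.16 for small subunit. In the first table alone it was 0.0445 for Elongator and URM1, 0 for Mediator, 0 for nuclear pore, 0.0222 for ribosome biogenesis and 3.49 for small subunit. Without shifted chromosomes it was 0.467 for large subunit, 0.133 for assembly and 0.822 for small subunit. Without libraries that went against their label it was 0.178 for Mediator, 0.0222 for elongation, 0 for assembly and 4.45 for small subunit. Genes with a value in at least 20 strains gave 0.0204 for chromatin and 0 for assembly, genes with a value in every strain 0 for assembly and 0.0467 for ribosome biogenesis, and leaving out ASF1, ASC1 and YLR338W 0.133 for assembly. Leaving out 1 strain at a time gave 0 to 0.0445 for Elongator and URM1, 0.0889 to 0.445 for large subunit, 0 to 0.0889 for Mediator, 0 to 0.645 for nuclear pore, 0 to 0.133 for elongation, 0 to 0.133 for assembly, 0.0222 to 0.0889 for ribosome biogenesis and 0.711 to 3.93 for small subunit, and 0 to 2 of the 32 genes in the small subunit deletions. Median correlations within RNA polymerases I, II and III were 0.095, 0.004 and 0.065 centred on the library group and 0.115, 0.038 and 0.090 centred on the strain median; between I and II, I and III, and II and III they were 0.054, 0.082 and 0.010, and 0.073, 0.086 and 0.070. No paired analysis was possible because the labels give no replicate numbers and each strain is a different deletion. The tables give no counts, so what depth limits is unknown.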
